A study of Mus musculus with 16 samples.

Results

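The 10 genes described here encode the TGF-beta ligands (Tgfb1, Tgfb2, Tgfb3), a protein that binds the latent ligand (Ltbp1), both chains of the receptor (Tgfbr1, Tgfbr2), a signal-carrying Smad (Smad3) and inhibitors of the pathway (Smad6, Smad7, Skil). They were taken by symbol: every probe set whose annotation gave exactly 1 of these symbols was a member. This gave 24 probe sets of the 45101 on the array, of which 34958 carried a single symbol, and 10 genes of 18194. RNA came from peritoneal tumour-associated macrophages (TAMs) of C57BL/6N females, hybridised to 16 Affymetrix mouse arrays. All mice received 1 mg tamoxifen by gavage at 8 to 12 weeks of age and, 3 weeks later, ID8-luc cells, which are murine ovarian cancer cells carrying luciferase, in the peritoneal cavity, where the tumour grew for 4 weeks. RbpjiΔEC mice had lost Rbpj, the DNA-binding partner of Notch receptors, in endothelial cells, and Control mice had not. TAMs were gated as CD45+, CD11b+ and F4/80+ and split by staining for CCR2, through which monocytes follow the chemokine CCL2. The 4 groups were CCR2+ RbpjiΔEC, CCR2+ Control, CCR2- RbpjiΔEC and CCR2- Control, with 4 arrays each. The driver of the endothelial recombination, the genotype of the Control mice beyond that name and any pooling of animals are not given in the sources used here. Nor do the labels say that arrays came from separate mice, so the p-values measure the spread between these samples, which may be technical.

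TGF-beta is secreted as an inactive complex in which the ligand stays wrapped in its own propeptide, and latent TGF-beta binding proteins such as LTBP1 hold that complex in the matrix until integrins, thrombospondin or proteases release it. Free ligand binds the type II receptor, which phosphorylates the type I receptor, and this in turn phosphorylates Smad2 and Smad3, which enter the nucleus with Smad4. Smad7 and Smad6 block the receptors or the receptor-activated Smads, and the corepressor SnoN, encoded by Skil, holds Smad target genes down. Tgfb2 is known as a gene of the Gata6-dependent resident macrophages of the mouse peritoneum, and TGF-beta in general restrains inflammatory macrophage activation.

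The sort label coincided with other differences between the arrays, and "CCR2+" and "CCR2-" stand here for the deposited label. Ccr2 itself averaged 7.69 in CCR2+ RbpjiΔEC arrays, against 8.94 in CCR2- RbpjiΔEC arrays, and 7.99 in CCR2+ Control arrays, against 9.99 in CCR2- Control arrays, all as log2 intensity. Its transcript was thus lower under the CCR2+ label, with a limma adjusted p of 0.135 in RbpjiΔEC mice and 0.0184 in Control mice, a Ccr2 call lost without CCR2- Control replicate 1 (−1.49, adjusted p = 0.0722), without CCR2+ Control replicate 1 (−1.61, adjusted p = 0.0671) or without CCR2+ Control replicate 4 (−1.81, adjusted p = 0.0523). It was gained in RbpjiΔEC mice without CCR2- RbpjiΔEC replicate 1 (−1.73, adjusted p = 0.0464). The deposited CCR2+ columns had mean intensities of 821 to 827, close to each other, while the CCR2- columns ran between 481 and 762. In the CCR2- columns 100% of values became whole when multiplied by a divisor of at most 22 (tolerance 0.001), against 2.58% to 2.91% in the CCR2+ columns, so the sort label and the authors' handling of the columns cannot be told apart. Arrays with the same label correlated at 0.971 to 0.993 and arrays with different labels at 0.838 to 0.869. Rbpj ranged between 11.17 and 11.77 in CCR2+ RbpjiΔEC arrays and between 11.17 and 11.55 in CCR2+ Control arrays, which checks no deletion, since it was made in endothelial cells. A bacterial trp control that mouse RNA should not bind read between 6.03 and 6.72 on the log2 scale, and differences against levels in that band understate a change.

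The label comparison asks what separates the sorted subsets. Tgfb2 and Ltbp1 differed most, at about 6 log2 units higher in the CCR2+ arrays. Tgfb1, the type I receptor gene Tgfbr1 and Smad3 were higher by 0.66 to 1.55. The inhibitor genes Smad7 and Skil were lower. Tgfb3, Tgfbr2 and Smad6 did not pass the test in either genotype. In RbpjiΔEC mice 5 members were higher, 2 lower and 3 not called at a limma adjusted p under 0.05, beside 18.1% of all genes higher and 21% lower. In Control mice the counts were again 5, 2 and 3, beside 19.4% of all genes higher and 21.4% lower. The members' median label difference was 0.39 in RbpjiΔEC mice and 0.40 in Control mice, and the median over all genes was −0.03 in both. The 2 label comparisons use separate arrays but share the estimate of spread.

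Markers of other cells moved with the label. Large peritoneal macrophages are the resident macrophages of the cavity, and all 20 of their measured marker genes were higher with the CCR2+ label in both genotypes. Their summed log2 level was 249.0 to 250.4 in CCR2+ RbpjiΔEC and 249.9 to 252.4 in CCR2+ Control arrays, against 155.4 to 160.6 in CCR2- RbpjiΔEC and 158.1 to 165.9 in CCR2- Control arrays. Adgre1, which encodes F4/80 of the gate, was 4.16 higher in RbpjiΔEC mice and 4.04 in Control mice. All 14 measured B cell genes were lower, with a summed level of 104.3 to 105.7 in CCR2+ RbpjiΔEC and 103.1 to 106.4 in CCR2+ Control arrays, against 169.2 to 170.6 in CCR2- RbpjiΔEC and 167.5 to 170.1 in CCR2- Control arrays. Cd79a, a chain of the B cell receptor, read 12.53 to 12.93 in the CCR2- Control arrays, so the CCR2- arrays, although gated as F4/80+, had lower macrophage and higher B cell markers than the CCR2+ arrays. Of the B cell genes 2 averaged at or below the trp control in each CCR2+ group, as did 1 of the macrophage genes in each CCR2- group. The part of the cell mixture in the label differences was not tested, and in such bulk samples fewer cells of a type and less RNA per cell cannot be told apart.

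**Figure D1:**
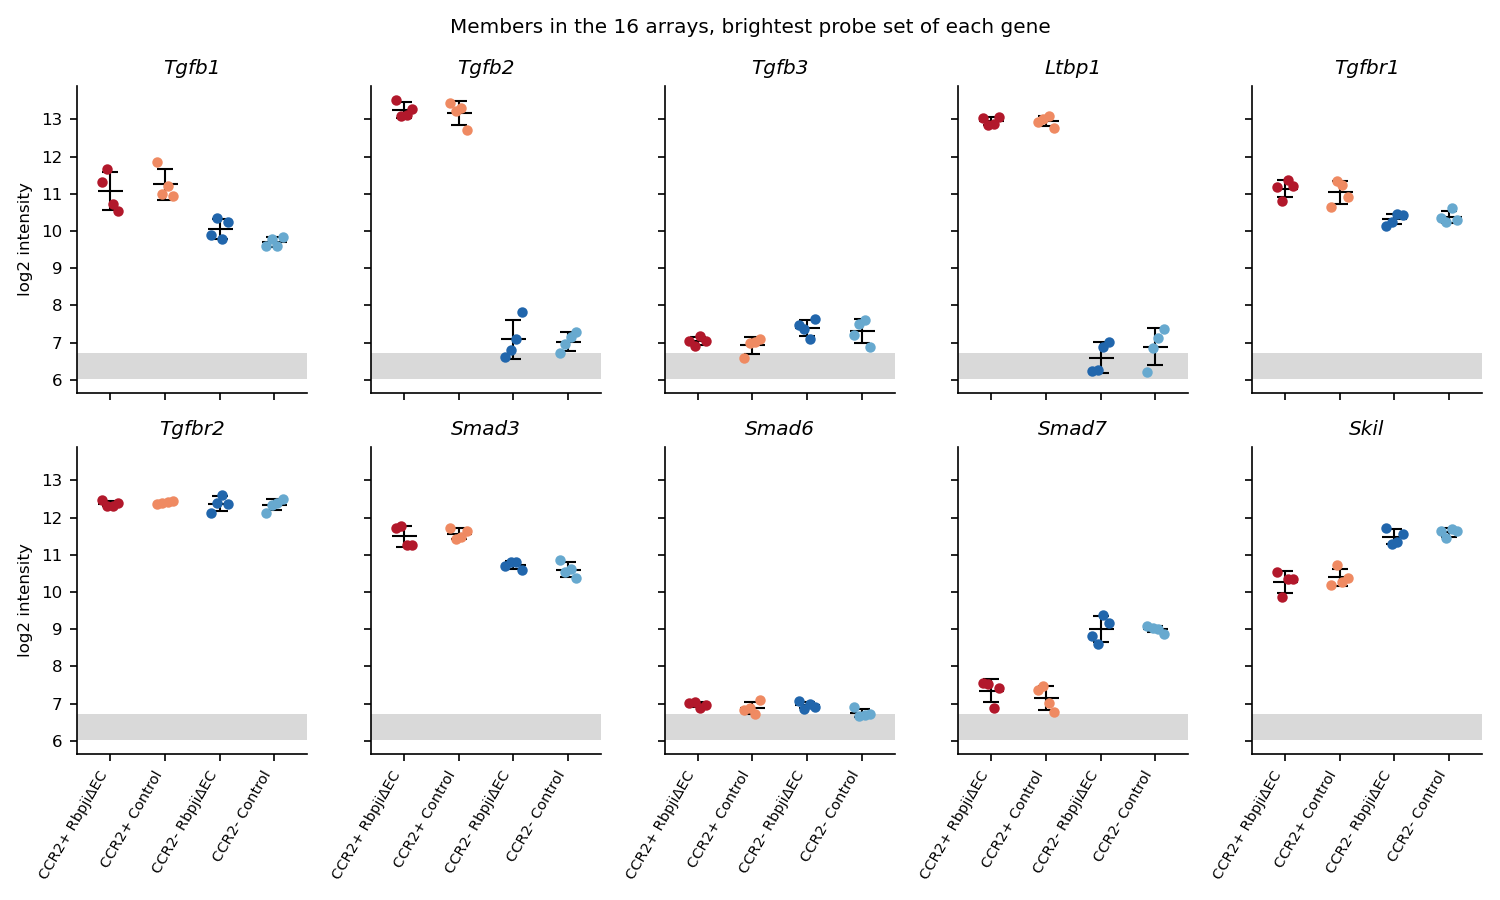
Log2 intensity of the 10 genes in each of the 16 arrays, quantile normalized, with the brightest probe set standing for each gene. Points are arrays, bars are the mean and SD of 4 arrays, and the grey band is the range of the bacterial trp control (6.03 to 6.72). Tgfb2 and Ltbp1 sit at 12.71 and above in all CCR2+ arrays and at 7.82 and below in all CCR2- arrays, while Smad7 and Skil are lower in the CCR2+ arrays.

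Tgfb2, the isoform that needs a co-receptor for tight receptor binding, read 13.52, 13.08, 13.11 and 13.28 in CCR2+ RbpjiΔEC arrays, against 6.62, 6.81, 7.09 and 7.82 in CCR2- RbpjiΔEC arrays. The Control mice gave 13.43, 13.22, 13.31 and 12.71 in CCR2+ arrays, against 6.71, 6.97, 7.16 and 7.28 in CCR2- arrays. The lowest CCR2+ array stood well above the highest CCR2- array, and several CCR2- values lay close to the trp band. The difference was 6.16 (SE 0.22, limma adjusted p = 7.78e-13, 71.6-fold) in RbpjiΔEC mice and 6.14 (SE 0.22, limma adjusted p = 8.65e-13, 70.6-fold) in Control mice. Each of the 4 Tgfb2 probe sets was called in both genotypes, with differences of 4.90 to 6.16.

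Ltbp1, whose product tethers latent TGF-beta, read 13.04, 12.86, 12.88 and 13.05 in CCR2+ RbpjiΔEC arrays, against 6.24, 6.26, 6.89 and 7.03 in CCR2- RbpjiΔEC arrays. Among Control mice the values were 12.94, 13.00, 13.10 and 12.77 in CCR2+ arrays, against 6.21, 6.87, 7.12 and 7.38 in CCR2- arrays. The CCR2+ arrays were tightly grouped, whereas 3 of the 8 CCR2- arrays fell inside the trp band. The difference was 6.35 (SE 0.215, limma adjusted p = 3.88e-13, 81.8-fold) in RbpjiΔEC mice and 6.06 (SE 0.215, limma adjusted p = 7.2e-13, 66.7-fold) in Control mice. The other Ltbp1 probe sets gave smaller differences, 2.34 and 3.33 in RbpjiΔEC mice and 2.32 and 3.31 in Control mice, all called. The mean over the 3 probe sets therefore differed by 4.01 in RbpjiΔEC mice and 3.90 in Control mice.

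Because these genes stood apart together, the 250 bases upstream of their RefSeq starts (build GRCm38.p6) are shown 5′ to 3′. Tgfb2 lies on the minus strand at chr1:186705990-186706239 and Ltbp1 on the plus strand at chr17:75005279-75005528. Capitals mark, on either strand, the Smad-binding core CAGAC, the cAMP response half-site TGACG, the E-box CACGTG and the TATA core TATAAA.
Tgfb2: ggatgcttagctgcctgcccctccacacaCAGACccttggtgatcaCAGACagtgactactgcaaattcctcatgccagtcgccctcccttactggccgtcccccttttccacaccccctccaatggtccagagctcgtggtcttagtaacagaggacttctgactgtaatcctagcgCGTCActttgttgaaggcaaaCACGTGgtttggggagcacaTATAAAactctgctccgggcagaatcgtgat
Ltbp1: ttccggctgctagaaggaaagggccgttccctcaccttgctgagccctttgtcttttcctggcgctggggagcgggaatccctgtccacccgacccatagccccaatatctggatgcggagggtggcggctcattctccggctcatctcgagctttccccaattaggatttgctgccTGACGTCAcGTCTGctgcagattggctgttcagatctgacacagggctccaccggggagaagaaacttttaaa

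Tgfb2 held CAGAC at 221 and 204 bases upstream of the start, TGACG, on the other strand, at 72, CACGTG at 51 and TATAAA at 31. Ltbp1 held CAGAC, on the other strand, at 64 and TGACG at 73 and 70, on opposite strands and overlapping, so that both read as the single palindrome TGACGTCA. RefSeq lists a second Ltbp1 start, whose window at chr17:75178531-75178780 held CAGAC at 148 and 97 and no TGACG. Which start these cells use was not tested. These motifs are common: of 32851 windows of this length, CAGAC stood in 42.2%, TGACG in 17.8%, CACGTG in 6.02% and TATAAA in 12.4%. The RBPJ core TGGGAA, present in 21.6% of windows, occurred only in the Smad3 window, at 219, among the 9 windows listed for 7 members, and the GATA motif GATAA, present in 22.6%, in none of them. A match describes the letters and is no evidence of binding.

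Tgfb1, the ligand most widely expressed by immune cells, read 11.31, 11.67, 10.73 and 10.55 in CCR2+ RbpjiΔEC arrays, against 9.89, 10.34, 9.78 and 10.23 in CCR2- RbpjiΔEC arrays. Control mice had 11.86, 10.99, 11.22 and 10.94 in CCR2+ arrays, against 9.59, 9.78, 9.59 and 9.85 in CCR2- arrays. The groups did not overlap within either genotype, although the CCR2+ RbpjiΔEC arrays were spread over more than 1 log2 unit. The difference was 1.01 (SE 0.233, limma adjusted p = 0.00223) in RbpjiΔEC mice and 1.55 (SE 0.233, limma adjusted p = 3.94e-05) in Control mice. Its other probe set did not differ beyond its spread, at 0.17 in RbpjiΔEC mice (limma adjusted p = 0.403) and −0.02 in Control mice (limma adjusted p = 0.947). The Tgfb1 call thus rests on the brighter probe set, and the mean of both gave 0.59 in RbpjiΔEC mice and 0.77 in Control mice. Without normalization Tgfb1 was 1.61 higher in RbpjiΔEC mice and 1.99 in Control mice. Platelets also carry this ligand. Of 7 measured platelet genes in RbpjiΔEC mice 2 were higher and 1 lower with the CCR2+ label, and 3 higher and 1 lower in Control mice. Over all genes the shares were 18.1% higher and 21% lower in RbpjiΔEC mice, and 19.4% higher and 21.4% lower in Control mice. Of the platelet genes 1 averaged at or below the trp control in each CCR2+ group and 3 in each CCR2- group, and their part was not tested.

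Tgfb3, the third isoform, has a single probe set and stayed near the trp band, at 6.90 to 7.18 in CCR2+ RbpjiΔEC arrays, against 7.11 to 7.64 in CCR2- RbpjiΔEC arrays. Control mice had 6.59 to 7.09 in CCR2+ arrays, against 6.88 to 7.62 in CCR2- arrays. The groups overlapped, and the differences of −0.36 in RbpjiΔEC mice (limma adjusted p = 0.0804) and −0.38 in Control mice (limma adjusted p = 0.0661) missed the threshold. Leaving out CCR2- Control replicate 4 brought both past it, at −0.36 in RbpjiΔEC mice (adjusted p = 0.0436) and −0.52 in Control mice (adjusted p = 0.00927). Median centring did so too, at −0.44 in RbpjiΔEC mice (adjusted p = 0.0443) and −0.45 in Control mice (adjusted p = 0.04).

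The receptor genes parted from each other. Tgfbr1, the kinase that phosphorylates the Smads, read 11.17, 10.81, 11.36 and 11.22 in CCR2+ RbpjiΔEC arrays, against 10.14, 10.25, 10.45 and 10.42 in CCR2- RbpjiΔEC arrays. The Control mice gave 10.65, 11.35, 11.23 and 10.92 in CCR2+ arrays, against 10.36, 10.23, 10.61 and 10.30 in CCR2- arrays. The groups did not overlap, though CCR2+ Control replicate 1 lay only just above the highest CCR2- Control array. The difference was 0.82 (SE 0.15, limma adjusted p = 0.000293) in RbpjiΔEC mice and 0.66 (SE 0.15, limma adjusted p = 0.00185) in Control mice. Both other Tgfbr1 probe sets were called as well, at 0.73 and 1.03 in RbpjiΔEC mice and 0.85 and 1.24 in Control mice. Without normalization Tgfbr1 was 1.45 higher in RbpjiΔEC mice and 1.16 in Control mice, and with median centring 1.16 higher in RbpjiΔEC mice and 1.11 in Control mice.

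Tgfbr2, which binds the ligand, read 12.46, 12.31, 12.31 and 12.39 in CCR2+ RbpjiΔEC arrays, against 12.12, 12.40, 12.60 and 12.36 in CCR2- RbpjiΔEC arrays. Among Control mice the values were 12.37, 12.38, 12.42 and 12.44 in CCR2+ arrays, against 12.13, 12.35, 12.38 and 12.49 in CCR2- arrays. The groups overlapped in both genotypes. The difference was 0.00 (95% interval −0.21 to 0.21) in RbpjiΔEC mice and 0.07 (95% interval −0.14 to 0.28) in Control mice. This value depended on the scaling: without normalization Tgfbr2 was 0.65 higher in RbpjiΔEC mice (adjusted p = 0.00756) and 0.66 higher in Control mice (adjusted p = 0.00709), and with median centring 0.36 higher in RbpjiΔEC mice (adjusted p = 0.159) and 0.61 higher in Control mice (adjusted p = 0.0193). A second Tgfbr2 probe set was 0.33 higher (limma adjusted p = 0.139) in RbpjiΔEC mice and 0.47 higher (limma adjusted p = 0.0364) in Control mice, and the faintest probe set read 5.98 to 6.25 in all arrays, at the level of the trp control.

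Smad3, the transcription factor that carries the signal to the nucleus, read 11.72, 11.76, 11.25 and 11.25 in CCR2+ RbpjiΔEC arrays, against 10.69, 10.81, 10.80 and 10.60 in CCR2- RbpjiΔEC arrays. Control mice had 11.72, 11.41, 11.47 and 11.65 in CCR2+ arrays, against 10.86, 10.55, 10.63 and 10.37 in CCR2- arrays. Every CCR2+ array was above every CCR2- array. The difference was 0.77 (SE 0.133, limma adjusted p = 0.000182) in RbpjiΔEC mice and 0.96 (SE 0.133, limma adjusted p = 1.73e-05) in Control mice. All 3 Smad3 probe sets were called in both genotypes, between 0.77 and 1.10. Without normalization the difference was 1.42 in RbpjiΔEC mice and 1.5 in Control mice.

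Among the inhibitors, Smad7, which recruits ubiquitin ligases to the type I receptor and is itself induced by TGF-beta, ran the other way. It read 7.56, 7.53, 6.89 and 7.41 in CCR2+ RbpjiΔEC arrays, against 8.83, 8.60, 9.39 and 9.18 in CCR2- RbpjiΔEC arrays. In Control mice it read 7.37, 7.48, 7.03 and 6.77 in CCR2+ arrays, against 9.09, 9.02, 9 and 8.88 in CCR2- arrays. The groups were more than 1 log2 unit apart. Smad7 differed by −1.66 (SE 0.187, limma adjusted p = 1.78e-06, 3.15-fold lower) in RbpjiΔEC mice and by −1.84 (SE 0.187, limma adjusted p = 4.99e-07, 3.57-fold lower) in Control mice. Its other probe set, whose CCR2+ levels of 6.21 to 6.46 lay inside the trp band, differed by −0.95 in RbpjiΔEC mice and −0.94 in Control mice, both called.

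Skil read 10.53, 9.86, 10.34 and 10.35 in CCR2+ RbpjiΔEC arrays, against 11.72, 11.30, 11.34 and 11.57 in CCR2- RbpjiΔEC arrays. In Control mice it read 10.19, 10.73, 10.28 and 10.37 in CCR2+ arrays, against 11.63, 11.44, 11.70 and 11.65 in CCR2- arrays. No CCR2+ array reached the lowest CCR2- array. The difference was −1.21 (SE 0.147, 2.32-fold lower) in both genotypes, with limma adjusted p of 4.01e-06 in RbpjiΔEC and 3.92e-06 in Control mice. The second, dimmer Skil probe set differed by −0.28 in RbpjiΔEC mice (limma adjusted p = 0.114) and −0.19 in Control mice (limma adjusted p = 0.273). The mean of both gave −0.75 in RbpjiΔEC mice and −0.70 in Control mice, and without normalization Skil differed by −0.59 in RbpjiΔEC mice and −0.68 in Control mice, each past the threshold.

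Smad6, the inhibitor linked mainly to BMP signalling, read 6.89 to 7.05 in CCR2+ RbpjiΔEC arrays, against 6.87 to 7.06 in CCR2- RbpjiΔEC arrays. In Control mice it lay at 6.72 to 7.10 in CCR2+ arrays, against 6.67 to 6.91 in CCR2- arrays. These levels were close to the trp band in all groups, and the differences of 0.02 in RbpjiΔEC mice (95% interval −0.17 to 0.21) and 0.13 in Control mice (95% interval −0.06 to 0.32) did not pass the test.

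Over the 24 probe sets, 14 were higher, 3 lower and 7 not called in RbpjiΔEC mice, beside 39.1% of all single-symbol probe sets called in either direction. In Control mice 15 were higher, 3 lower and 6 not called, beside 41.6%. Probe sets of the same gene share a transcript and are not independent.

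**Figure D2:**
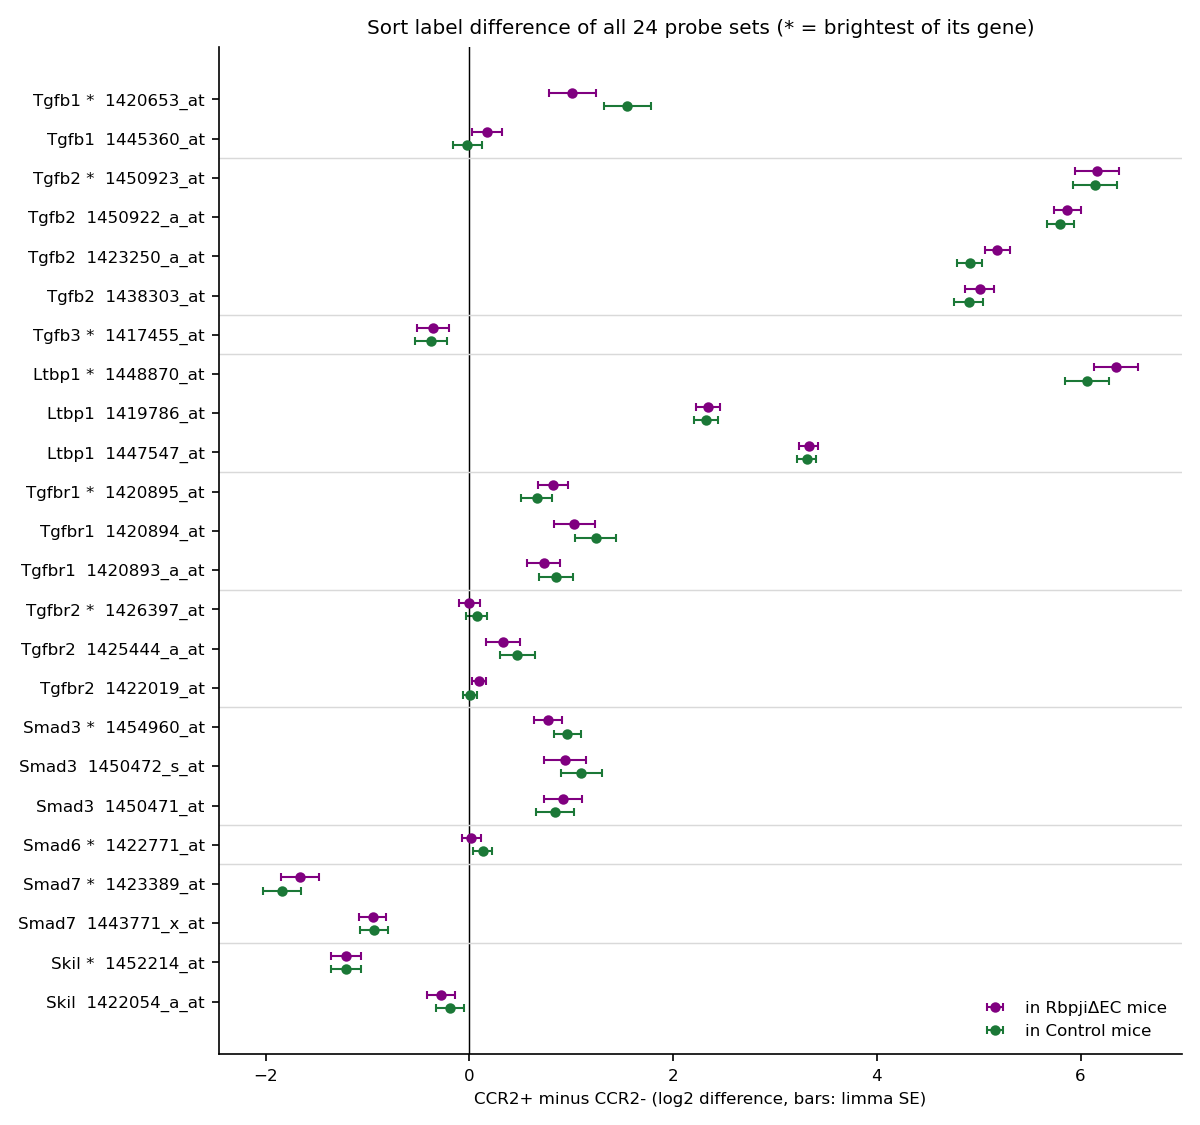
Log2 difference between CCR2+ and CCR2- arrays for each of the 24 probe sets, in RbpjiΔEC mice (purple) and Control mice (green), with limma SE as bars. Asterisks mark the brightest probe set of each gene. The Tgfb2 probe sets lie between 4.90 and 6.16 and the Ltbp1 probe sets between 2.32 and 6.35, while the dimmer Tgfb1 and Skil probe sets lie near 0.

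The genotype comparison asks whether loss of endothelial Rbpj altered the pathway in the cells sorted as TAMs. The CCR2- arrays had lower macrophage and higher B cell markers, so their results may not describe macrophages alone. None of the 10 genes was called in either subset with limma, beside 0% of all genes in the CCR2+ arrays and 0% in the CCR2- arrays. At an unadjusted p under 0.05, 0 of 10 members and 830 of 18194 genes passed in the CCR2+ arrays, and 1 of 10 members and 390 genes in the CCR2- arrays. The member was Smad6, 0.21 higher in CCR2- RbpjiΔEC arrays (95% interval 0.02 to 0.40, limma adjusted p = 1), at levels close to the trp band.

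For the remaining members the intervals show what size of change these arrays could have missed. Tgfb1 averaged 11.07 ± 0.519 in CCR2+ RbpjiΔEC arrays, against 11.25 ± 0.421 in CCR2+ Control arrays (SD, n = 4 each), a difference of −0.19 (95% interval −0.68 to 0.30). In CCR2- arrays it averaged 10.06 ± 0.268 in RbpjiΔEC mice, against 9.70 ± 0.135 in Control mice (SD, n = 4 each), a difference of 0.36 (95% interval −0.14 to 0.85). Both intervals for Tgfb1 included 0, and they were the widest of the 10 genes. The dimmer Tgfb1 probe set differed by −0.05 in CCR2+ arrays and by −0.23 in CCR2- arrays, neither called. Tgfb2 differed by 0.08 (95% interval −0.39 to 0.55) in CCR2+ arrays, and Ltbp1 by 0.00 (95% interval −0.45 to 0.46). In CCR2- arrays, where both lay near the trp band, Tgfb2 differed by 0.06 (95% interval −0.41 to 0.53) and Ltbp1 by −0.29 (95% interval −0.75 to 0.17). Tgfb3, near the trp band in both subsets, differed by 0.11 (95% interval −0.22 to 0.45) in CCR2+ arrays and by 0.10 (95% interval −0.24 to 0.43) in CCR2- arrays.

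Tgfbr2 differed by −0.04 (95% interval −0.25 to 0.17) in CCR2+ arrays and by 0.03 (95% interval −0.18 to 0.24) in CCR2- arrays. Tgfbr1 differed by 0.10 (95% interval −0.22 to 0.42) in CCR2+ arrays and by −0.06 (95% interval −0.38 to 0.26) in CCR2- arrays. Smad3 differed by −0.07 (95% interval −0.35 to 0.22) in CCR2+ arrays and by 0.13 (95% interval −0.16 to 0.41) in CCR2- arrays. Smad7 was 0.19 higher in CCR2+ RbpjiΔEC arrays (95% interval −0.21 to 0.58) and differed by 0.00 (95% interval −0.39 to 0.40) in CCR2- arrays. Skil differed by −0.12 in each subset (95% interval −0.43 to 0.19).

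Whether the genotype difference depended on the sort label was tested as an interaction. No member and 0% of all genes were called with limma, and at an unadjusted p under 0.05 the counts were 0 of 10 members and 555 genes. The interaction farthest from 0 was that of Tgfb1, at −0.54 (95% interval −1.24 to 0.15, limma adjusted p = 0.999), and that of Skil was 0.00 (95% interval −0.44 to 0.44). The dimmer Tgfb1 probe set had an interaction in the other direction, at 0.18 (limma adjusted p = 0.998).

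**Figure D3:**
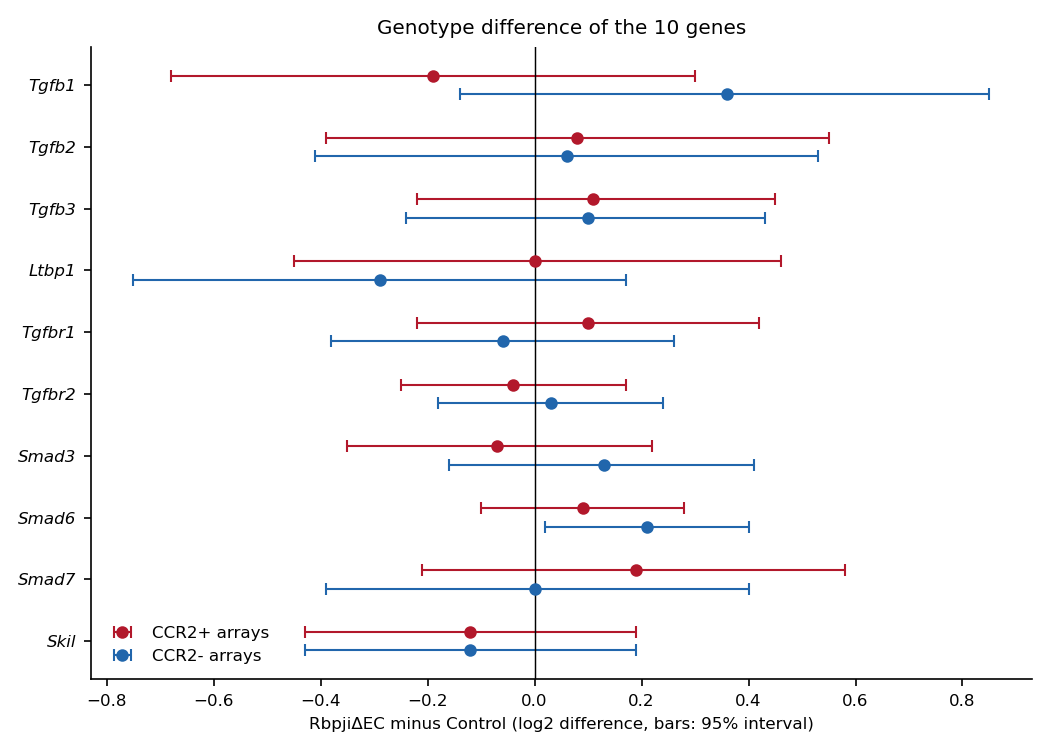
Log2 difference between RbpjiΔEC and Control arrays for the 10 genes, in CCR2+ arrays (red) and CCR2- arrays (blue), with 95% limma intervals as bars. All points lie between −0.29 and 0.36, and every interval spans 0 except that of Smad6 in CCR2- arrays (0.02 to 0.40).

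Other genes of the pathway were taken as 5 lists written with earlier results known, so the counts describe these arrays and support nothing further. Of 22 listed symbols of genes that hold or activate latent TGF-beta, which include both Nrros and its older name Lrrc33, 19 were measured. In the label comparison 6 were higher and 0 lower in RbpjiΔEC mice (median 0.31), and 8 higher and 0 lower in Control mice (median 0.20), beside all-gene shares of 18.1% higher and 21% lower in RbpjiΔEC mice and 19.4% higher and 21.4% lower in Control mice. Without normalization 11 were higher in RbpjiΔEC mice. Thbs1, encoding thrombospondin 1, which releases the active ligand, was 5.35 higher in RbpjiΔEC mice and 5.19 in Control mice. It read 12.84 to 12.97 in CCR2+ RbpjiΔEC arrays, against 7.41 to 7.71 in CCR2- RbpjiΔEC arrays. Tgm2, a transglutaminase that crosslinks latent complexes to the matrix, was 2.67 higher in RbpjiΔEC mice and 3.07 in Control mice.

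Of 14 further receptor and co-receptor genes, 7 were higher and 0 lower in RbpjiΔEC mice (median 0.32), and 8 higher and 1 lower in Control mice (median 0.42), beside the same all-gene shares of 18.1% higher and 21% lower in RbpjiΔEC mice and 19.4% higher and 21.4% lower in Control mice. Acvr1, a type I receptor, was 2.73 higher in RbpjiΔEC mice and 2.58 in Control mice. Bmpr2, a type II receptor, was 2.34 higher in RbpjiΔEC mice, and Bmpr1a, a type I receptor, 2.16 higher in Control mice. Both were also higher in the other genotype. Bmpr2 averaged 11.65 in CCR2+ Control and 9.62 in CCR2- Control arrays. Bmpr1a averaged 9.78 in CCR2+ RbpjiΔEC and 7.76 in CCR2- RbpjiΔEC arrays. Tgfbr3, a co-receptor that presents TGF-beta, was 2.13 higher in RbpjiΔEC mice and 2.14 in Control mice. It was named after its values were seen. Acvrl1, a type I receptor best known from endothelium, was 0.51 lower in log2 units in CCR2+ Control arrays, at 7.62 to 8.06 against 8.19 to 8.69 in CCR2- Control arrays. The Acvrl1 call was lost with the mean of all its probe sets (−0.16, adjusted p = 0.311) and without normalization (−0.39, adjusted p = 0.0758).

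Of 23 Smads and Smad regulators, 4 were higher and 7 lower in RbpjiΔEC mice (median −0.07), and 4 higher and 6 lower in Control mice (median −0.05). These counts were near the background, since over all genes 18.1% were higher and 21% lower in RbpjiΔEC mice, and 19.4% higher and 21.4% lower in Control mice. This split depended on the scaling: without normalization 11 were higher and 3 lower in RbpjiΔEC mice, and 10 higher and 2 lower in Control mice, and with median centring 8 were higher and 4 lower in RbpjiΔEC mice, and 10 higher and 2 lower in Control mice. Smad1, which carries BMP signals, was 1.57 higher in RbpjiΔEC mice and 1.54 in Control mice, and Wwp1, a ubiquitin ligase of the pathway, was 1.35 higher in RbpjiΔEC mice and 1.24 in Control mice. Tgif2, a corepressor of Smad target genes, differed by −1.43 in RbpjiΔEC mice and −1.94 in Control mice. Nedd4l, a ligase that removes activated Smads, differed by −0.93 in RbpjiΔEC mice. In Control mice Nedd4l averaged 9.12 in CCR2+ and 9.63 in CCR2- arrays. Pmepa1, a feedback inhibitor, differed by −0.72 in Control mice. That call was lost without CCR2- Control replicate 1 (−0.64, adjusted p = 0.0528) or replicate 4 (−0.60, adjusted p = 0.0546), and with the mean of its probe sets (−0.28, adjusted p = 0.175). In RbpjiΔEC mice Pmepa1 averaged 8.04 in CCR2+ arrays (7.72 to 8.58) and 8.93 in CCR2- arrays (8.52 to 9.37).

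Genes known to respond to TGF-beta in various cells were listed as 29 symbols. These include both Ccn2 and its older name Ctgf, and Ski, which the Smad list also holds. Of the 29 symbols, 27 were measured. Whether TGF-beta raises or lowers each gene was not recorded, so counts by direction do not measure the response to it. In RbpjiΔEC mice 14 were higher and 3 lower (median 0.49), and in Control mice 14 were higher and 2 lower (median 0.60). Over all genes 18.1% were higher and 21% lower in RbpjiΔEC mice, and 19.4% higher and 21.4% lower in Control mice. Without normalization 0 were lower in RbpjiΔEC mice. Mertk, a receptor for dying cells that is also a general macrophage marker, was 4.99 higher in RbpjiΔEC mice and 4.63 in Control mice. Fn1, encoding fibronectin, was 4.55 higher in RbpjiΔEC mice and 3.46 in Control mice. In CCR2- Control arrays Fn1 read 11.79, 9.08, 9.72 and 10.11, replicate 1 being the highest. Itgae, an integrin chain that is also a dendritic cell marker, differed by −0.76 in RbpjiΔEC mice and −0.98 in Control mice. Id3, a Smad target of the BMP branch, differed by −1.14 in Control mice, and averaged 7.80 in CCR2+ RbpjiΔEC and 8.48 in CCR2- RbpjiΔEC arrays. Olfml3, a secreted protein gene, differed by −0.84 in RbpjiΔEC mice, and averaged 8.78 in CCR2+ Control and 9.18 in CCR2- Control arrays. Without normalization the Itgae (−0.50, adjusted p = 0.0721) and Olfml3 (−0.42, adjusted p = 0.19) calls in RbpjiΔEC mice were lost, and that of Olfml3 also with only the 2 groups in the fit (−0.84, adjusted p = 0.0516). Of 10 measured dendritic cell markers, 6 differed downward with the CCR2+ label in RbpjiΔEC mice and 8 in Control mice, and their part was not tested.

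Of 22 BMP, activin and GDF ligands and antagonists, 20 were measured. In RbpjiΔEC mice 5 were higher and 4 lower (median −0.01), and in Control mice 3 were higher and 4 lower (median −0.09). Both counts were near the shares over all genes, at 18.1% higher and 21% lower in RbpjiΔEC mice and 19.4% higher and 21.4% lower in Control mice. The lower genes numbered 2 in RbpjiΔEC mice without normalization, and 2 in Control mice without CCR2- Control replicates 1 and 3. Bmp2 was 4.38 higher in RbpjiΔEC mice and 4.47 in Control mice, at 10.47 to 10.84 in the CCR2+ arrays, against 5.97 to 6.56 in the CCR2- arrays, where it did not rise above the trp control. Fstl1 and Fstl3, which encode follistatin-like proteins, differed by −1.33 and −1.14 in RbpjiΔEC mice and by −1.06 and −1.25 in Control mice. Bmp1, a protease that can cleave LTBP1, was 0.65 higher in RbpjiΔEC mice, and averaged 8.08 in CCR2+ Control and 7.56 in CCR2- Control arrays. Gdf9, best known from the oocyte, was 0.52 higher in Control mice, a call lost without normalization (0.50, adjusted p = 0.0542). In RbpjiΔEC mice Gdf9 averaged 7.67 in CCR2+ and 7.22 in CCR2- arrays.

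With limma, 0 genes of the 5 lists were called between genotypes in either subset. In CCR2+ arrays the smallest p-values belonged to Itgb3, an integrin chain that binds latent TGF-beta, which differed by 0.53, and Mmp14, a membrane-bound matrix protease, which differed by −0.57, both at a limma adjusted p of 0.966. In CCR2- arrays they belonged to Id3, which differed by −0.41, and Fn1, which differed by −1.06, both at a limma adjusted p of 1. Fn1 was highest in CCR2- Control replicate 1, at 11.79. That array also had the highest mean of general macrophage markers among the CCR2- arrays. The mean was 8.67 to 9.54 in CCR2- Control arrays, against 8.33 to 8.84 in CCR2- RbpjiΔEC arrays, and its part was not tested.

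**Figure D4:**
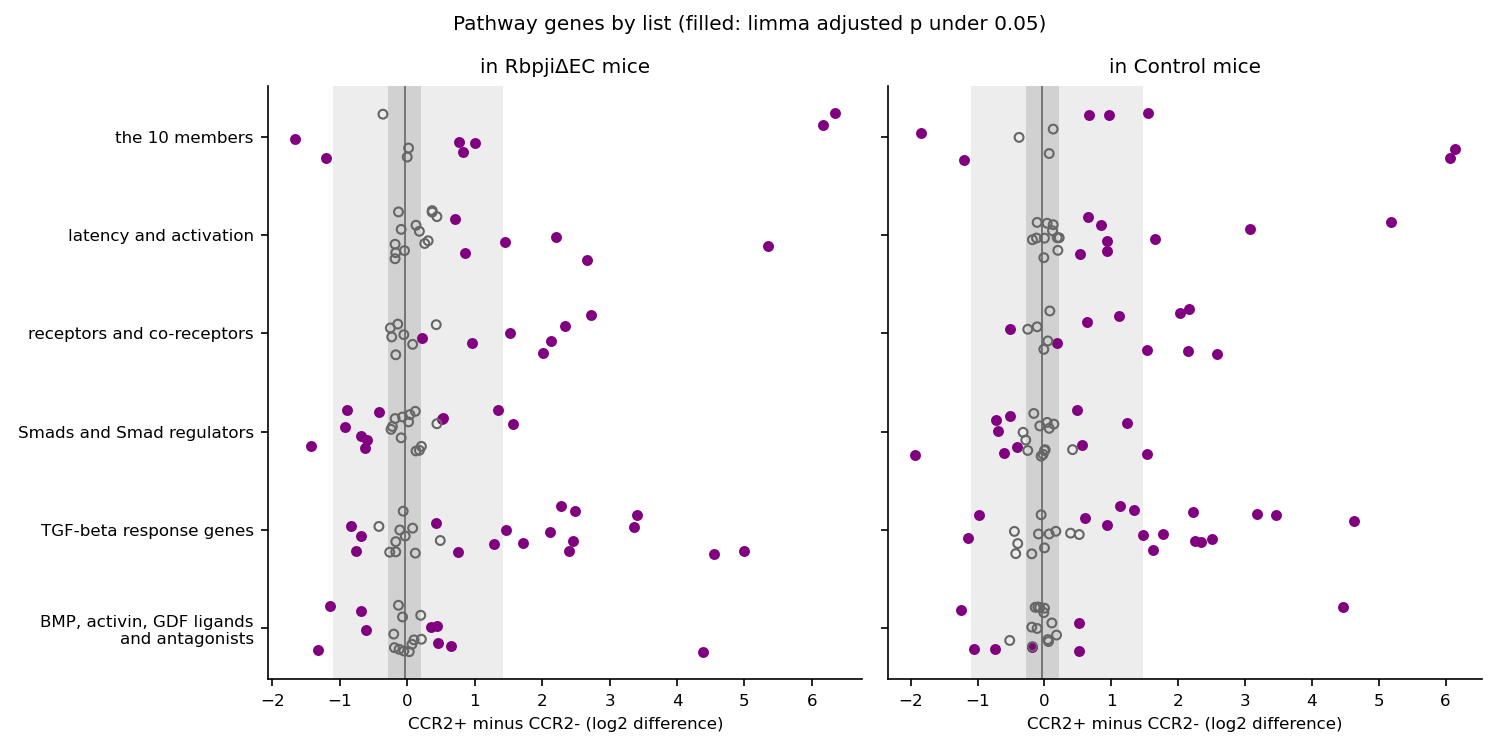
Log2 difference between CCR2+ and CCR2- arrays for the 10 genes and the 5 pathway lists, in RbpjiΔEC mice (left) and Control mice (right). Each point is a gene, filled where the limma adjusted p was under 0.05, and the grey line, dark band and light band show the median, the middle 50% and the middle 90% of all 18194 genes. Tgfb2, Ltbp1, Thbs1, Mertk, Bmp2 and Fn1 lie far to the right in both panels, Fn1 at 4.55 in RbpjiΔEC mice and 3.46 in Control mice, and the Smad list holds points on both sides.

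Over all 16 arrays the genes most like Ltbp1 in pattern, by the root mean square difference of centred log2 levels, were Tgfb2 (0.231), Serpinb2 (0.278), F5 (0.289), Fabp4 (0.324) and Vsig4 (0.34), so the nearest of all tested genes to Ltbp1 was another member. Serpinb2, F5 and Vsig4 belong to the large peritoneal macrophage list. Nearest to Smad7 were Dock10 (0.186), Vmn2r84 (0.21), Dnajc7 (0.222), Wdfy4 (0.237) and Mef2c (0.239), with label differences of −1.51 to −1.78. The label difference dominates both measures of likeness.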

How the data were processed

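Biotin-labelled RNA was hybridised to Affymetrix mouse arrays, and the deposited values are linear probe set intensities, 1 column per array. The sources used here do not say how the authors computed or scaled these intensities. They were put on the log2 scale and quantile normalized over the 16 arrays, starting from the deposited intensities. Of the probe sets, 932 with several symbols and 9211 not listed in the annotation were left out. For the 9012 genes with more than 1 probe set the one with the highest mean stood for the gene, and no filter on dim probe sets was applied. Tests used limma 3.58.1 (R 4.3.3) and its eBayes step on group means over all 16 arrays, two-sided p-values and Benjamini-Hochberg adjustment over 18194 genes at a threshold of 0.05, in 5 comparisons. Single probe sets were fitted and adjusted over all 34958 with 1 symbol. Batches could not be tested, since no slide or scan information was used here, and 4 arrays per group limit the precision.

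The members, pathway lists and marker lists were chosen with earlier results of these data known. All members are named, along with up to 2 called genes per direction of each list with the largest difference, or the gene with the smallest p, and the 5 genes most like Ltbp1 and Smad7. The text gives part of these, picked after the values were seen. Upstream windows came from RefSeq for 7 of 10 members. On simulated data with 50 changed genes per size among 18194, limma recovered 36% at 0.5 log2 units, 90% at 1, 98% at 1.5 and 100% at 2 in the CCR2+ genotype comparison. False calls numbered 11. The shares were 30%, 80%, 98% and 100% between genotypes in CCR2- arrays (7 false calls) and 56%, 94%, 98% and 100% between labels in Control mice (9 false calls). In the data 7423 of 18194 genes were called between labels in Control mice. The simulation changed far fewer, so its label shares do not describe that comparison. Between genotypes 0 genes were called in either subset, whereas the simulation changed 50 per size. More true changes ease the adjusted threshold, so the genotype shares may overstate the recovery of a lone changed gene. Alternatives changed the normalization, the choice of probe set, a filter on dim genes, the spread estimate, array weights, the samples in the fit, a replicate block, and left out arrays.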

Additional observations from a re-analysis of the deposited data

How the results depend on the processing

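Under the alternatives, 1300 of 1310 values of the 10 genes kept their side of the threshold with no change of a called direction, and the 7 genes called between the labels remained called in all 26 alternatives run for each genotype. The exceptions were in Tgfb3 and Tgfbr2. Tgfb3 passed the threshold in 7 instances, at −0.36 to −0.52, with median centring, array weights, only the groups compared, or without CCR2- Control replicate 4 or CCR2- RbpjiΔEC replicate 3. Tgfbr2 in RbpjiΔEC mice changed sign without normalization, at 0.65 (adjusted p = 0.00756), and in Control mice passed the threshold at 0.66 without normalization and 0.61 with median centring, so its lack of a label difference depends on the scaling. A further 79 values changed sign and were called under neither setting. Counts of called members between the labels were 7 to 8 in RbpjiΔEC mice and 7 to 9 in Control mice, and 0 for genotype and interaction. Leaving out each array in turn gave 7 to 8 in both label comparisons, and leaving out CCR2- Control replicates 1 and 3 together gave 7 in both. Scaling moved the split over all genes: median centring called 3518 higher and 2853 lower in RbpjiΔEC mice, against 3290 and 3817 with quantile normalization, and 4390 and 2614 in Control mice, against 3532 and 3891. Without normalization the split was 5689 and 1197 in RbpjiΔEC mice, whose median over all genes then shifted by 0.23, and 4584 and 1730 in Control mice. Without normalization the median over all genes was −0.16 between genotypes in CCR2- arrays and 0.162 in the interaction. Between genotypes and in the interaction, at most 2 of all genes were called under any alternative. Of 1651 values of the named pathway genes, Ccr2, Adgre1 and Cd79a, 1634 kept their side of the threshold, 15 lost a call, 2 gained one and 0 reversed. Losses were in Acvrl1, Olfml3, Itgae, Gdf9, Pmepa1 and Ccr2, and both gains in Ccr2, which in RbpjiΔEC mice was called at −1.58 with array weights (adjusted p = 0.0258) and in Control mice lost its call with them (−1.44, adjusted p = 0.0651). Without CCR2- Control replicates 1 and 3, Pmepa1 (−0.70, adjusted p = 0.0819) and Ccr2 (−1.49, adjusted p = 0.148) lost their calls. Called Smad list genes numbered 3 to 11 higher and 3 to 8 lower in RbpjiΔEC mice, and 4 to 10 higher and 2 to 6 lower in Control mice. The labels do not say that replicate numbers pair arrays, and not every same-numbered pair correlated above 0.1. Correlations of same-numbered arrays ran between −0.38 and 0.151 for the genotypes in CCR2+ arrays and between −0.0959 and 0.194 in CCR2- arrays, with 0 and 2 of 4 arrays closest to their own number, and between −0.0316 and 0.403 for the labels in Control mice and 0.0406 and 0.241 in RbpjiΔEC mice, with 3 of 4 each, a hint of pairing between the labels that the design does not state. With the replicate number as a block, 7 members were called between the labels in each genotype and 0 between genotypes or in the interaction. Signal near the trp control limits Tgfb3, Smad6 and the CCR2- levels of Tgfb2 and Ltbp1.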

Other observations

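Within a label, the members were compared with each other over 8 arrays, 4 of each genotype, in 45 pairs per label. None passed adjustment over those pairs in exact permutation tests, and 6 pairs in CCR2+ arrays and 2 in CCR2- arrays had an unadjusted p under 0.05 by Pearson's r. The smallest of these p-values in CCR2+ arrays were those of Tgfb1 with Tgfb3 (r = −0.813, exact permutation p = 0.00446, adjusted p = 0.189) and of Tgfb1 with Smad3 (r = 0.845, exact permutation p = 0.0091, adjusted p = 0.189). Tgfb2 and Ltbp1 were among the pairs with an unadjusted p under 0.05 in both labels. In CCR2+ arrays their r was 0.794 (exact permutation p = 0.0148, adjusted p = 0.189) and rho 0.738 (exact permutation p = 0.0458, adjusted p = 0.516), and r was 0.56 without the 2 arrays farthest from the median of Tgfb2. In CCR2- arrays r was 0.756 (exact permutation p = 0.0206, adjusted p = 0.524) and rho 0.905 (exact permutation p = 0.00456, adjusted p = 0.205), with r of 0.977 without the 2 farthest arrays, although both genes lay close to the trp control there. Of 20 correlations per label with the mean large peritoneal macrophage or B cell marker level, none passed adjustment. With the macrophage mean in CCR2- arrays, r was 0.681 for Ltbp1 (exact permutation p = 0.0411, adjusted p = 0.411) and 0.474 for Tgfb2 (exact permutation p = 0.228, adjusted p = 0.763). The levels of 4 arrays in each of 40 gene and group combinations were searched for an array standing apart from the rest, and 0 were found.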
